A study of Homo sapiens with 6 samples.

Results

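The genes described here are the mRNAs of the G1 phase machinery of the cell cycle in RH36 cells given pre-miR-27a. They are 34 genes chosen by name from the array's own gene names: 7 cyclins, 4 kinases, 7 kinase inhibitors, 3 pocket proteins, 10 E2F and DP factors, and the 3 genes SKP2, CKS1B and CKS2. They were read by 55 of the 41000 probes on the array, out of 30484 gene names in all. After removal of probes missing on more than 1 of the 6 arrays, 36469 probes with 27328 gene names remained. All 34 genes remained with 54 of their probes, the lost probe being 1 of the 2 for CDKN2B. Each of these 54 had a signal well above background on every array.

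The RH36 line comes from an embryonal rhabdomyosarcoma, a childhood tumor of muscle-like cells, and lacks the PAX3/FOXO1 fusion gene. Cells were transfected with pre-miR-27a, a synthetic precursor of the microRNA miR-27a (n = 3), or with a negative pre-control molecule (n = 3), and total RNA of each sample was labelled with Cy3 and hybridized to its own Agilent array. Both groups were the same line, in the same medium, handled with transfection reagent. The labels give 10 nM of precursor, and 48 h after transfection for the pre-miR-27a samples, while the study's methods give another dose, reagent and time, and which of these applies to the arrays was not settled. The labels number the samples as biological replicates without saying what separates them, so the p-values measure only the spread between these samples, which may be technical. A single line in short-term culture is the whole model.

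Progress from G1 into S phase is driven by D-type cyclins with CDK4 or CDK6, and then by E-type and A-type cyclins with CDK2. These kinases phosphorylate the pocket proteins RB1, RBL1 and RBL2, which otherwise hold E2F and DP factors in check at the promoters of DNA replication genes. The INK4 inhibitors act on CDK4 and CDK6, and the CIP/KIP inhibitors act mainly on cyclin-CDK2 complexes. Much of this control runs through phosphorylation and protein breakdown, which an mRNA array does not measure.

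The transfected microRNA is shown because its seed, the stretch by which a microRNA pairs with its targets, defines the treatment. Capitals mark bases 2 to 8. The mature sequence is from RefSeq (GRCh38.p14) and lies at chr19:13836447-13836467 on the minus strand.
hsa-miR-27a-3p: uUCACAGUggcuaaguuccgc

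E2F factors read short sites in promoters, and the promoters of some members carry such letters themselves. The searched letters were TTTCCCGC, TTTCGCGC, TTTGCCGC and TTTGGCGC on either strand, from 250 bases before to 50 bases after the RefSeq start of each gene. They occurred in 5 of the 27 members with a promoter in the reference (18.5%), in 12 of 17 replication genes listed as E2F targets (70.6%), and in 908 of all 27305 promoters (3.33%). A match describes letters only, and no binding was measured. One window is printed for each of these 5 members, on the strand of its gene in GRCh38.p14, with the matched letters in capitals.
E2F1, chr20:33686390-33686413: aaaaaggaTTTGGCGCgtaaaagt
E2F2, chr1:23531260-23531283: gcacgacgTTTGGCGCtaaaaaaa
E2F3, chr6:20401818-20401841: aaaagccgGCGGGAAAtccgagtt
RBL1, chr20:37096008-37096031: ctgcagatTTTCGCGCgctttggc
TFDP1, chr13:113584625-113584648: cgccgaagGCGCGAAAaggcgcgc

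The share of spots well above background was 69.9% to 73.9% in the pre-control group and 74.1% to 78.0% in the pre-miR-27a group, and 0 spots were saturated. The groups were hybridized on separate slides, 1 slide for each, so an effect of the slide and an effect of the precursor cannot be told apart in any value below. Of the 10 spike-in transcripts 8 were well above background on every array, and all 8 gave more signal in the pre-miR-27a group, by 0.05 to 0.42 log2 units, whose part in the results was not tested. Of the muscle markers, MYOD1, MYOG, MYF6, DES, CHRNA1, MYH3 and TNNC1 were well above background on all 6 arrays and MYF5 on none. PTPRC, EPCAM, CDH1, KRT5 and PECAM1 were above background on none of the arrays, whereas probes for CD3E, CD14, VWF and TEK were on all 6. Some markers moved with the transfection, and their part in the values of the members was not tested. By brightest probe 6 of the 7 muscle markers kept were lower and 1 higher, none called in limma. With the replicate number as a block MYOG (-0.95, adjusted p 0.0334), MYOD1 (-0.45, 0.0363) and TNNC1 (-0.58, 0.0402) fell in limma. Of all gene names, 14.1% were called with the block, in either direction. A dimmer CHRNA1 probe rose by 0.95 (limma adjusted p 0.0216, no block), its brightest differing by -0.15. CD14 (-0.71, adjusted p 0.0223) and CD3E (-0.44, 0.0348) fell in limma without the block, 2 of the 4 blood markers. Of all gene names, 7.4% were called in that fit, in either direction. The other CD3E probe differed by -0.05 (limma adjusted p 0.874). In bulk RNA, fewer cells of a type (or cycle phase) and less RNA per cell cannot be told apart.

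No member passed the test of pre-miR-27a against pre-control. In limma, with Benjamini-Hochberg adjustment over all 36469 probes and a threshold of 0.05, 0 of 34 genes were called by their brightest probe and 0 of 54 probes in all, against 7.4% of all gene names and 7.83% of all probes (3.95% higher, 3.88% lower). SAM at a false discovery rate of 5% also called 0 members by brightest probe. Over all genes SAM called 1815 of 31717 probes, a count not limited to brightest probes and so not a like measure. It did not test CDKN2B, which had a missing array. At an unadjusted limma p under 0.05 there were 4 genes, against 23.8% of all gene names. The lowest adjusted p was 0.0913 for the brightest probe of a gene, CDKN2A, and 0.0862 for a dimmer probe, that of CDKN1B. By brightest probe 24 members were higher with pre-miR-27a and 10 lower, with a median log2 difference of 0.06, and 7 of the 24 were below 0 under 75th percentile scaling. Over all gene names, 43.7% were higher and the median was -0.04. The median size of the difference, whatever its sign, was 0.131 in the members and 0.211 over all gene names.

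The 95% interval of the log2 difference lay within a 1.5-fold change in either direction for 20 of the 34 members, and within a 2-fold change for 32. These intervals are from limma without the replicate block and so leave out the pairing of the arrays. Its half-width ran from 0.18 to 1.55 log2 units, the widest being that of CDKN2B. The groups of arrays did not overlap for 6 members, against 31.5% of all gene names. Of these, CDKN1C, RB1, RBL2, E2F4 and CKS2 were higher and CDKN2A was lower. For a single gene, the exact permutation test of 3 against 3 arrays cannot give a two-sided p below 0.1.

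**Figure D1:**
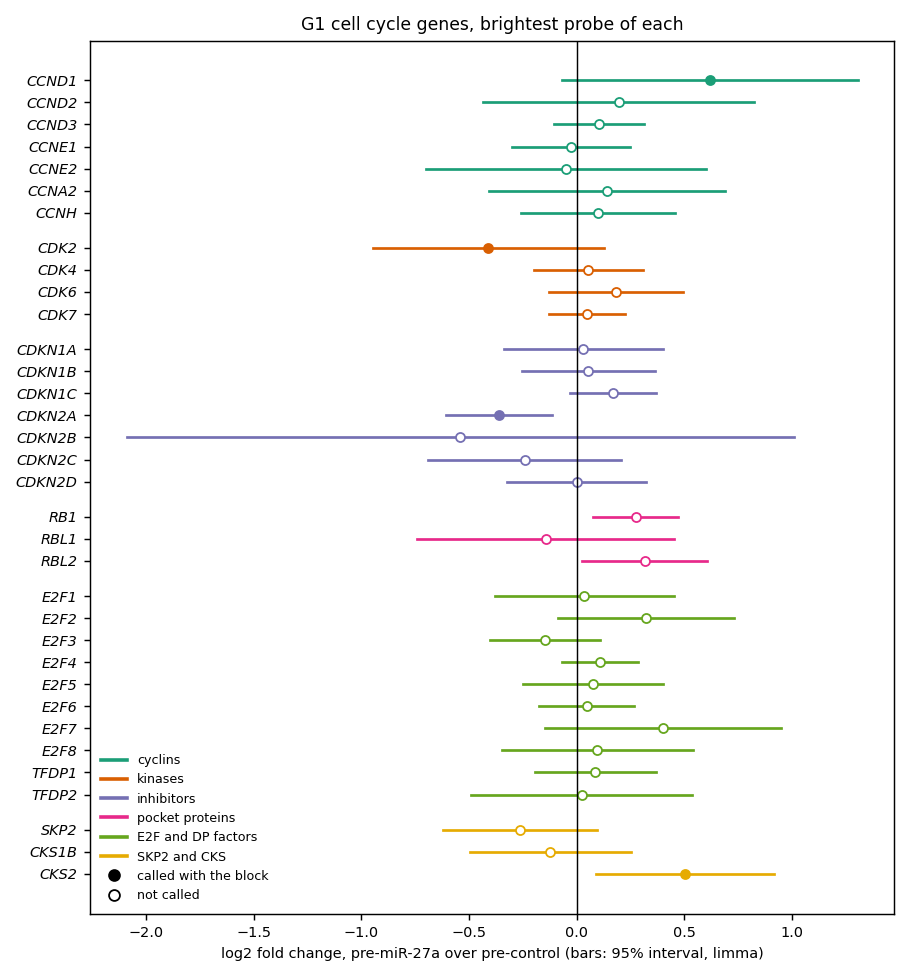
Log2 difference of pre-miR-27a over pre-control (horizontal axis) for the brightest probe of each of the 34 genes, colored by subgroup, with bars for the 95% interval from limma without the block over 3 and 3 arrays. Filled points are the 4 genes called when the replicate number is a block (CCND1, CKS2, CDK2 and CDKN2A), and none was called without it.

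The replicate number mattered for these genes. Same-numbered arrays of both groups deviated together from their group means, with correlations across 31717 probes of 0.40, 0.46 and 0.41. On this ground, taken from these same data, each pre-miR-27a array was set against the pre-control array of its number. The number is also the slide position. With the number as a block in limma, 4 of 34 members were called by their brightest probe, against 14.1% of all gene names: CCND1 and CKS2 rose, and CDK2 and CDKN2A fell. Of the 54 probes 8 were called, 6 higher and 2 lower, against 14.9% of all probes (7.24% higher, 7.62% lower). Both shares were near the background. Of the 33 members measured on all 6 arrays, 25 had the same direction in all 3 pairs (18 higher, 7 lower), against 62.5% of gene names (27% higher, 35.4% lower). This direction depends on the normalization. CCND3, CDK7, CDKN1A, E2F1 and E2F6 were higher in all 3 pairs, yet their mean difference was below 0 under 75th percentile scaling.

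Among the cyclins, 5 of 7 genes were higher and 2 lower (4 and 3 under 75th percentile scaling), with a median log2 difference of 0.10. CCND1, the D-type cyclin that responds to growth signals, read 11.13, 10.55 and 11.02 (log2 signal) on pre-control arrays 1 to 3 and 11.87, 11.00 and 11.70 on pre-miR-27a arrays 1 to 3. The groups overlapped, since pre-miR-27a replicate 2 lay below pre-control replicates 1 and 3, yet each pre-miR-27a array was above its own control. The difference was 0.62 (SE 0.28, 1.54-fold) with an adjusted p of 0.239 in limma, and 0.0374 with the block, which lowered the SE to 0.0851. A dimmer CCND1 probe, at chr11:69176451-69176510 (hg18), read 7.89 and 7.83 in pre-control replicates 1 and 3 and 8.94, 8.05 and 8.66 in pre-miR-27a. Its pre-control array 2 was missing, so pair 2 fell out of the blocked fit, in which the difference was 0.94 (adjusted p 0.0430 in limma) against 0.69 without the block (adjusted p 0.227). The probe farthest upstream differed by -0.21 (adjusted p 0.535 in limma).

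CCND2, a D-type cyclin like CCND1, was higher by 0.20 by its brightest probe (limma adjusted p 0.693). A dimmer CCND2 probe read 13.26, 12.65 and 12.50 on the pre-control arrays and 13.83, 13.19 and 13.26 on the pre-miR-27a arrays. The groups overlapped through pre-control replicate 1, and each pair was higher. The difference was 0.62 (SE 0.27, limma adjusted p 0.226), and with the block the probe was called (adjusted p 0.0342). The remaining CCND2 probe was lower in all 3 pairs, with a log2 difference of -0.16 (limma adjusted p 0.727). CCND3 differed by 0.10, the E-type cyclins CCNE1 and CCNE2 by -0.03 and -0.05, CCNA2, which drives S phase, by 0.14, and CCNH, the cyclin of the CDK-activating kinase, by 0.10.

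Of the 4 kinases, 3 were higher and 1 lower, with a median of 0.05, but 1 was higher and 3 lower under 75th percentile scaling (median -0.06). CDK2, the partner of E-type and A-type cyclins, read 8.30, 8.77 and 8.21 on the pre-control arrays and 7.96, 8.34 and 7.75 on the pre-miR-27a arrays. The groups overlapped through replicate 2, the highest array in both, and each pre-miR-27a array lay below its own control. The log2 difference was -0.41 (SE 0.22, limma adjusted p 0.313). With the block the SE was 0.0570 and CDK2 fell (adjusted p 0.0378). CDK4 differed by 0.06 and CDK7, the CDK-activating kinase, by 0.05. CDK6 differed by 0.18 by its brightest probe. Its dimmer probe read 11.28, 11.01 and 10.91 against 11.65, 11.32 and 11.33, so that all 3 pre-miR-27a arrays were above all controls, and the difference of 0.37 (SE 0.15) had an adjusted p of 0.195 in limma and 0.0413 with the block.

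**Figure D2:**
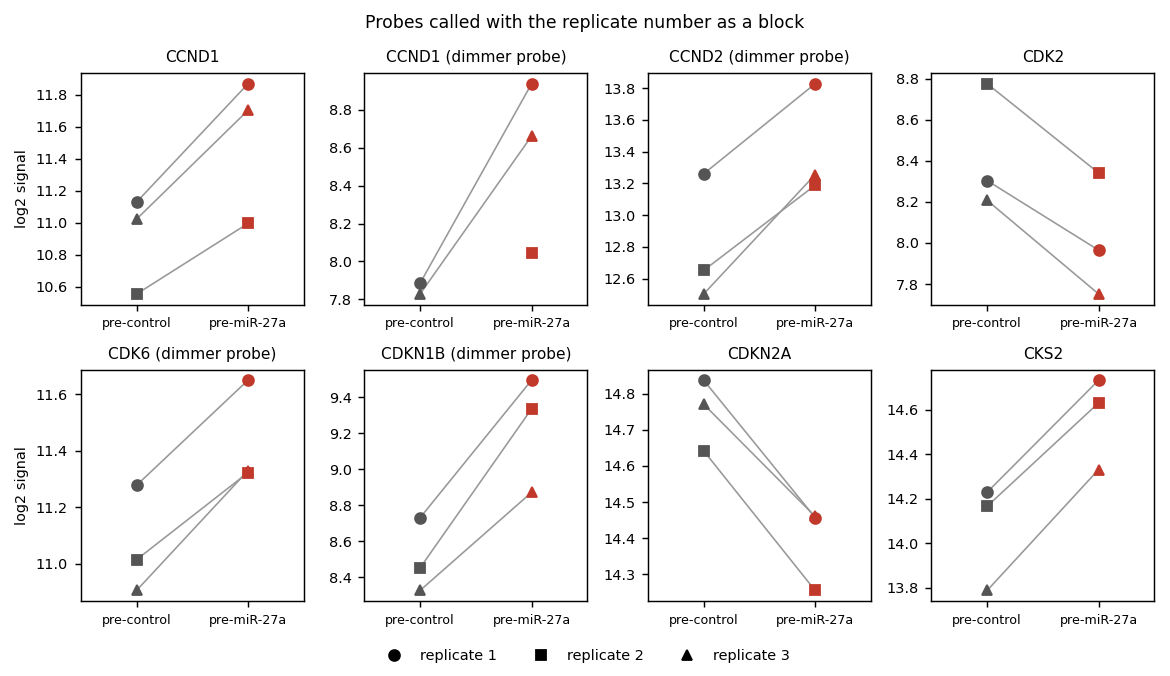
Log2 signal of each array (vertical axis, with its own range in each panel) for the 8 probes called with the replicate number as a block, grey for pre-control and red for pre-miR-27a, with lines joining arrays of the same number. Pre-control replicate 2 of the dimmer CCND1 probe was missing. In each panel all joined pairs run the same way: 6 probes upward, CDK2 and CDKN2A downward.

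The 7 inhibitors had no common direction, with 4 higher, 3 lower and a median of 0.00 (2 and 5, median -0.08, under 75th percentile scaling; 3 and 4 in the deposited values). CDKN2A, the locus of the INK4a inhibitor and of ARF, had the lowest adjusted p of the members by brightest probe. It read 14.84, 14.64 and 14.77 on the pre-control arrays and 14.46, 14.26 and 14.46 on the pre-miR-27a arrays. All pre-miR-27a arrays lay below all controls. The log2 difference was -0.36 (SE 0.10, 0.780-fold) with an adjusted p of 0.0913 in limma. It passed with the block (adjusted p 0.0402), under 75th percentile scaling (-0.48, adjusted p 0.0349) and with normexp background correction (-0.38, adjusted p 0.0499). The other CDKN2A probe differed by -0.12 (limma adjusted p 0.472), and which of the locus's transcripts each probe reads was not settled.

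CDKN1B, which encodes the CIP/KIP inhibitor p27, differed by 0.06 by its brightest probe, whose arrays overlapped. Its dimmer probe read 8.73, 8.45 and 8.33 on the pre-control arrays and 9.50, 9.34 and 8.87 on the pre-miR-27a arrays. These groups did not overlap, and the difference of 0.73 (SE 0.20) had an adjusted p of 0.0862 in limma and 0.0354 with the block. CDKN1A, the p53 target p21, differed by 0.03, and CDKN1C, the remaining CIP/KIP gene, by 0.17. Among the other INK4 genes, CDKN2C differed by -0.24 and CDKN2D by 0.00. CDKN2B differed by -0.54 (SE 0.59) with pre-control replicate 2 missing, and by -0.15 with the block, which drops that pair, and in the deposited values, which hold that array. With 1 array left out its value ran from -1.02 without pre-control replicate 1 to -0.061 without pre-control replicate 3, and it was -0.997 without pre-miR-27a replicate 3 and -0.15 without pre-miR-27a replicate 2.

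The pocket proteins gave the highest median of the subgroups, 0.27 over 3 genes, of which 2 were higher and 1 lower. RBL2, the p130 pocket protein of resting cells, read 10.20, 10.06 and 10.14 on the pre-control arrays and 10.66, 10.38 and 10.31 on the pre-miR-27a arrays. The groups did not overlap, and the difference of 0.32 (SE 0.12) had an adjusted p of 0.170 in limma and 0.0825 with the block. RB1, the retinoblastoma gene, is given array by array because its values had been seen not to overlap. It read 13.31, 13.39 and 13.48 against 13.68, 13.64 and 13.69, a difference of 0.27 (SE 0.08, limma adjusted p 0.101, and 0.0703 with the block). The dimmer probe of each of these genes differed by 0.25 for RB1 and 0.29 for RBL2, in the same direction as the brighter one. RBL1 (p107) differed by -0.14 by the brightest probe and by 0.13 by the other.

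Of the 10 E2F and DP factors, 9 were higher and 1 lower (7 and 3 under 75th percentile scaling), with a median of 0.08, and none was called with or without the block. E2F7, a repressive E2F, had the largest difference of these 10. It read 11.64, 11.66 and 11.08 on the pre-control arrays and 11.83, 12.16 and 11.60 on the pre-miR-27a arrays. The groups overlapped through pre-miR-27a replicate 3, and the difference was 0.40 (SE 0.22, limma adjusted p 0.331, and 0.0759 with the block). The activators E2F1 and E2F3 differed by 0.04 and -0.15, and E2F2 by 0.32. The other E2F2 probe went the other way, by -0.39 (limma adjusted p 0.0938), with groups that did not overlap. E2F4 and E2F5, which bind pocket proteins in resting cells, differed by 0.11 and 0.08, and the other E2F4 probe by -0.03. The repressors E2F6 and E2F8 differed by 0.05 and 0.10, and the DP partners TFDP1 and TFDP2 by 0.09 and 0.02. The 5 factors and pocket proteins whose promoter windows are printed above had differences between -0.15 and 0.32 by brightest probe.

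SKP2, CKS1B and CKS2 went different ways, with a median of -0.12. CKS2, a small subunit bound to CDK1 and CDK2, read 14.23, 14.17 and 13.79 on the pre-control arrays and 14.73, 14.63 and 14.33 on the pre-miR-27a arrays. The groups did not overlap, and the 3 pairs differed by 0.50, 0.47 and 0.54. The mean difference was 0.50 (SE 0.17, 1.42-fold) with an adjusted p of 0.137 in limma, and with the block CKS2 rose (SE 0.0529, adjusted p 0.0334). CKS1B, its close relative and the cofactor of SKP2, differed by -0.12, and its 3 probes lay between -0.14 and -0.09. SKP2, the F-box protein that targets p27, differed by -0.26.

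The spread between replicates was wide for these genes and was shared by the groups. The groups were averaged at each replicate number, and the range was taken over the 3 numbers. This range was larger than the difference between groups in 27 of the 33 members measured on all arrays, against 61.8% of gene names. The median of this range was 0.350 log2 units in the members, where the median size of the difference was 0.122. Over all gene names the same medians were 0.277 and 0.203. The same replicate was the highest in both groups for 27 of 33 members (81.8%), against 59.0% of gene names. Replicate 2 was that array for 14 members (42.4%), CDK2 and E2F1 among them, against 22.9% of gene names. Of the 20 replication genes listed as E2F targets, 18 had it highest in both groups. CCND1, CDK6, CDK7, CDKN1A, CDKN2A and E2F5 went the other way, with replicate 2 lowest in both groups. The share of all gene names with replicate 2 lowest in both groups was not counted.

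**Figure D3:**
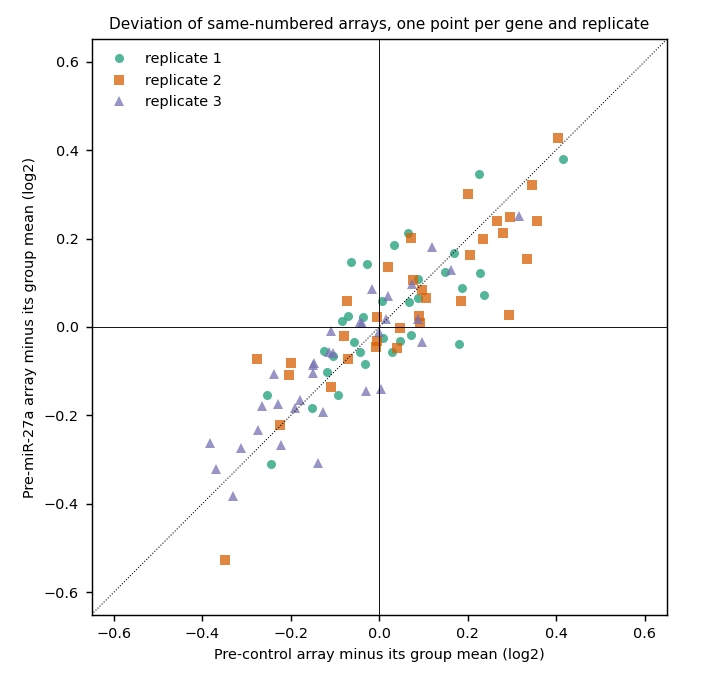
Deviation of each array from its group mean in log2 units, pre-control on the horizontal and pre-miR-27a on the vertical axis, with 1 point for each of the 33 genes measured on all arrays and each of 3 replicate numbers; the dotted line marks equal deviations. Points follow the dotted line, with replicate 2 often at the upper right and replicate 3 often at the lower left.

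Several members were read by probes at different places along the gene, and these probes could be set against each other within each array. For the 15 members with an upstream and a downstream probe on the hg18 positions of the files, the difference in log2 signal between the probes was compared between groups with limma, adjusted over all 6565 such gene names. Unequal change was called for 3 of 15 members, against 15.8% of all gene names (9.89% with the upstream change higher, 5.89% with it lower). This share was near the background. The change from pre-control to pre-miR-27a was higher for the upstream probe in 8 of 15, against 52.0% of all gene names. The groups did not overlap in 8 of 15, against 42.7% of all gene names. This comparison was added after the data had been seen.

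For CCND1 the upstream probe (chr11:69167820-69167879) minus the downstream probe (chr11:69177414-69177473) was -1.53, -1.21 and -1.37 on the pre-control arrays and -2.32, -2.01 and -2.26 on the pre-miR-27a arrays. The groups did not overlap, and they differed by -0.83 (SE 0.126, limma adjusted p 0.0151, and 0.0322 with the block). For CDKN1B the upstream (chr12:12762386-12762445) minus the downstream probe (chr12:12766207-12766266) was -3.15, -3.49 and -3.39 against -2.59, -2.57 and -2.84. Here the upstream probe gained, by 0.68 (SE 0.126, limma adjusted p 0.0245, and 0.0440 with the block). For E2F2 the upstream (chr1:23708962-23709021) minus the downstream probe (chr1:23705520-23705579) was -4.87, -5.13 and -4.92 against -5.74, -5.73 and -5.57. The groups differed by -0.71 (SE 0.101, limma adjusted p 0.0133, and 0.0331 with the block), the upstream probe by itself being -0.39 and the downstream one 0.32. In CCND2 the difference of 0.42 had an adjusted p of 0.0678. The signs therefore differed among the genes, and which transcripts or exons the probes read was not settled. All 3 calls were lost without pre-miR-27a replicate 1 (adjusted p 0.0628 for CCND1, 0.0882 for CDKN1B and 0.0599 for E2F2). The CDKN1B call was also lost without pre-miR-27a replicate 2, pre-control replicate 2 or pre-control replicate 3, that of E2F2 without pre-miR-27a replicate 2 and that of CCND1 without pre-miR-27a replicate 3.

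**Figure D4:**
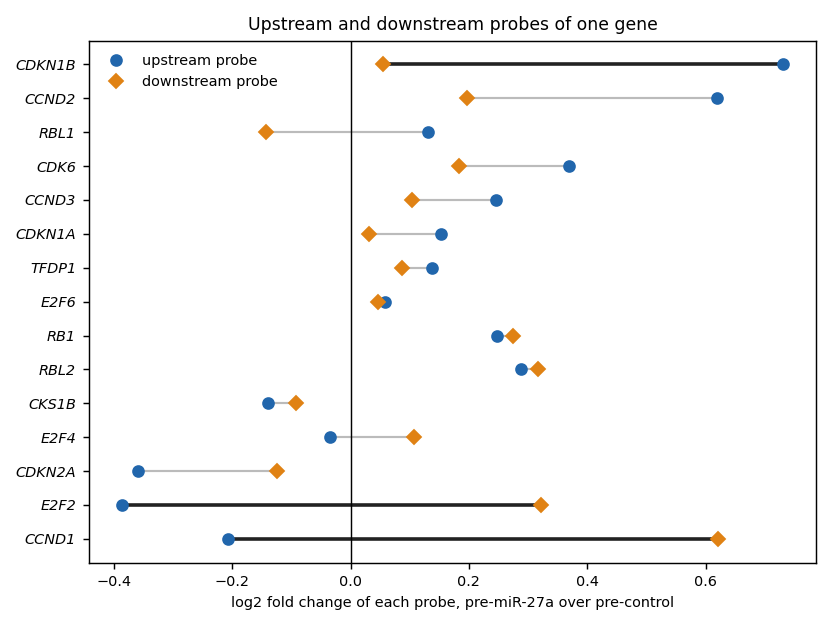
Log2 difference of pre-miR-27a over pre-control for the upstream probe (blue circles) and the downstream probe (orange diamonds) of 15 genes, ordered by the gap between them. Thick black lines mark CDKN1B, E2F2 and CCND1, where limma called the gap; the upstream probe is the higher one in CDKN1B and the lower one in the other pair of genes.

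The members were set beside 56 genes of neighbouring steps, chosen from knowledge of the pathway with earlier results of these data known. In limma 0 of the 56 were called higher and 1 lower by the brightest probe, against 3.07% and 4.33% of gene names. The gene called was CCNA1, a germ-line cyclin whose probe gave no array a signal well above background, and without any single array it was no longer called. With the block 7 were higher and 2 lower, against 5.97% and 8.1%.

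Among the 20 replication genes listed as E2F targets, 17 were higher and 3 lower, with a median of 0.13 and none called, but under 75th percentile scaling 10 were higher and 10 lower (median 0.02). PCNA, the sliding clamp of DNA polymerase, differed by 0.40 (limma adjusted p 0.168, and 0.0366 with the block). The 7 genes of the MuvB complex, MYBL2 and FOXM1 had a median of -0.06, with 2 higher. The 7 regulators of the SCF and APC ubiquitin ligases had a median of -0.21, with 3 higher, and FZR1, an APC activator, differed by -0.41 (limma adjusted p 0.165, and 0.0375 with the block), with another of its probes at 0.10. Of 15 other cyclins and cyclin-dependent kinases 8 were higher, with a median of 0.04 (7 and -0.03 under 75th percentile scaling), and CCNG2 came nearest to a call among those well above background, at 0.38 (limma adjusted p 0.0530, and 0.0382 with the block). In the p53 axis above CDKN1A, 4 of 7 were higher, with a median of 0.01 (3 and -0.02 under 75th percentile scaling). Over any probe, 1 dimmer probe of POLE was called lower and 1 of MDM4 higher in limma, while their brightest probes were not called.

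**Figure D5:**
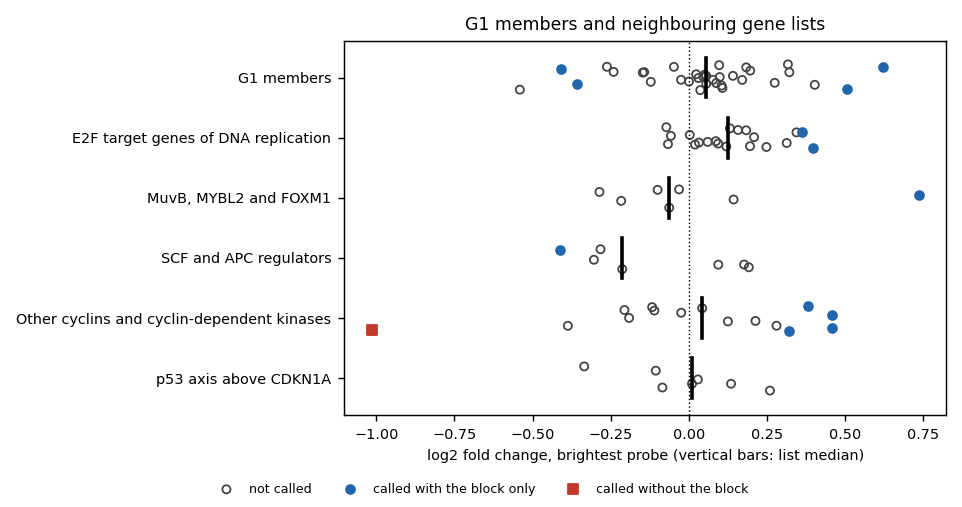
Log2 difference of pre-miR-27a over pre-control by brightest probe for the 34 members and for the 5 neighbouring lists, with vertical bars at each list's median (0.06 in the members, 0.13 in the replication genes) and vertical scatter for legibility only. Blue points were called with the replicate block only, and the red square is CCNA1, the single gene called without it.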

How the data were processed

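Each spot's processed Cy3 intensity was deposited by the authors from Feature Extraction, with background subtracted within the array and no normalization between arrays, together with mean signals, local background and quality flags. The authors also deposited a table of quantile-normalized log2 values for 33169 probes (column medians 9.13 to 9.22; median absolute difference from the values computed here 0.00425, largest 1.05). Here log2 intensities of non-control spots were quantile normalized, spots not found were set to missing, replicate spots were averaged and probes missing on over 1 array were removed. The groups were compared with limma 3.58.1 (R 4.3.3, files read with the package data.table, version 1.17.8), Benjamini-Hochberg adjustment and a threshold of 0.05, and the scripts were tested on simulated data. A gene is given by its brightest probe, and another probe where its call or direction differs. Per-array values are given for members with a called probe, with or without the block, and for the largest difference of a subgroup without one. Correlations between arrays of different replicate numbers were -0.27 to -0.12. Centering each group on its mean makes these negative once same-numbered arrays correlate, so they add no support for the pairing. The numbers in the labels, which are also slide positions, were taken to pair the arrays because same-numbered arrays correlated in these same data. SAM used 20 relabellings. Sequences are from RefSeq. Members, lists and tests were chosen with earlier results of these data known. Matches of the microRNA seed in transcripts were not analysed here. One gene of the neighbouring lists is counted but not reported here by name.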

Additional observations from a re-analysis of the deposited data

How the results depend on the processing

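The 75th percentile scaling and normexp (offset 50) each called 1 member lower (CDKN2A, also 1 probe), and the replicate block 2 higher and 2 lower by brightest probe and 6 and 2 by any probe. Among the 56 neighbouring genes, 1 was called higher with normexp, with only probes well above background and with a variance trend and robust estimation, and 7 higher and 2 lower with the block. There 0 were called lower with normexp, with only probes well above background, with the positive and significant flag, with the deposited values, and without any single array (0 to 0). Of all calls, 50.4% were higher, and 39.2% under 75th percentile scaling, where the median over all probes was -0.09 against -0.02. Signs turned under that scaling for CCND3 (-0.012), CDK4 (-0.10), CDK7 (-0.021), CDKN1A (-0.081), CDKN2D (-0.079), E2F1 (-0.024) and E2F6 (-0.059), for CDKN2D in the deposited values (-0.0069) and for E2F2 by the mean of its probes (-0.033). The cause of these shifts was not tested.

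With 1 array left out, no member was called, and 0 probes of any gene passed in 4 of the 6 fits, 81 without pre-control replicate 3 and 1276 without pre-control replicate 1. Log2 differences then ranged across 0 for CCNE1 (-0.099 to 0.067), CCNE2 (-0.26 to 0.15), CCNA2 (-0.043 to 0.30), CCNH (-0.028 to 0.18), CDK4 (-0.019 to 0.099), CDKN1A (-0.082 to 0.14), CDKN1B (-0.037 to 0.15), CDKN2D (-0.074 to 0.11), RBL1 (-0.31 to 0.048), E2F1 (-0.084 to 0.17), E2F5 (-0.023 to 0.20), E2F6 (-0.0063 to 0.094), E2F8 (-0.028 to 0.24), TFDP1 (-0.013 to 0.16) and TFDP2 (-0.10 to 0.18). Members with unequal upstream and downstream change numbered 0 to 3, with 0 without pre-miR-27a replicate 1 and 1 without pre-miR-27a replicate 2. The E2F2 call was also lost under 75th percentile scaling (-0.54, limma adjusted p 0.0787), and CCND2 was called under it (0.51, adjusted p 0.0324), among pairs well above background and in the deposited values. With the block no other call by the brightest probe of a member changed. The number of arrays limits the precision.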
